A study of Mus musculus with 6 samples.

Results

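Of 10 genes listed as marking the base of the intestinal crypt or as responding to Wnt signals, 9 were measured here in mouse colon, through 21 probe sets of an Affymetrix expression array. The set was chosen by gene name: Lgr5, Ascl2, Olfm4, Smoc2, Sox9 and Lrig1 for crypt base and progenitor cells, and Axin2, Ephb2, Ephb3 and Cd44 as Wnt targets. The 21 probe sets are part of 45101 on the array, and the 9 genes part of 18194 with a probe set annotated to 1 gene. No probe set carried the symbol Ephb2 in the annotation used, so that gene was not analysed here. Of the 9 genes, 8 were strong enough to be tested and Olfm4 was not.

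The colon renews its lining from stem cells at the base of its crypts. Wnt ligands from nearby cells, made stronger by R-spondins that bind Lgr receptors, keep beta-catenin stable in these cells. Beta-catenin then works with TCF factors in the nucleus to switch on targets that include Lgr5, Ascl2 and Axin2. As cells move up the crypt they leave this signal, stop dividing and become colonocytes or goblet cells.

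The tissue was colon of C57BL/6 mice aged 6 to 8 weeks, taken 24 h after ethanol was injected into the rectum, with 1 array per sample. There were 3 groups of 2 arrays each: wild-type mice (WT), GPR41 knockout (KO) mice and GPR43 KO mice. GPR41 and GPR43 are the receptors for short-chain fatty acids encoded by Ffar3 and Ffar2. All groups received ethanol, so no comparison here is with untreated colon. The labels do not say which part of each gene was deleted, or whether arrays came from separate animals or from a mixture, so the p-values rest on a spread between arrays that may be technical.

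The values are MAS5 signals, an intensity per probe set on a linear scale, and the median signal per array ranged from 80.9 to 96.8. Ffar2 in its stronger probe set was at 1194 and 1118 in WT and at 1857 and 1933 in GPR41 KO. It was at 1598 in the library labelled GPR43 KO replicate 1, which was 138% of the WT mean, and at 189.0 in GPR43 KO replicate 2, which was 16.4% of it. A second probe set gave 143% and 9.56%. The library labelled GPR43 KO replicate 1 thus goes against its label, since both probe sets were low in GPR43 KO replicate 2. Why these libraries differ was not tested. Counts of called genes in GPR43 KO against WT are also given without it where they change, in a fit that leaves 1 GPR43 KO array and takes its spread from the other groups; over all genes it calls 230 in place of 432. No probe set carried the symbol Ffar3, which leaves the label of the GPR41 KO arrays without a check. General epithelial markers were strong in every array, and all 15 of them were tested.

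Of the crypt base and Wnt target genes strong enough to be tested, Cd44 alone passed, and in GPR43 KO alone. In GPR41 KO against WT, 0 of the 8 tested genes rose or fell, where 4.97% of the 10916 genes tested were called and 3.11% were called lower (limma, adjusted p under 0.05). In GPR43 KO against WT, 1 of the 8 fell, the hyaluronan receptor Cd44, and 0 rose, where 3.96% of all genes were called and 2.41% were called lower. Without the library labelled GPR43 KO replicate 1, 0 of the 8 were called. Their median log2 fold change was 0.17 in GPR41 KO and 0.29 in GPR43 KO, beside medians of 0.00051 and 0.03 over all genes tested. In both comparisons 6 of the 8 had a positive and 2 a negative fold change. Smoc2 and Cd44 were the 2 with lower signals in both KO groups. Both comparisons use the same WT arrays, so their values are not independent of each other.

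**Figure D1:**
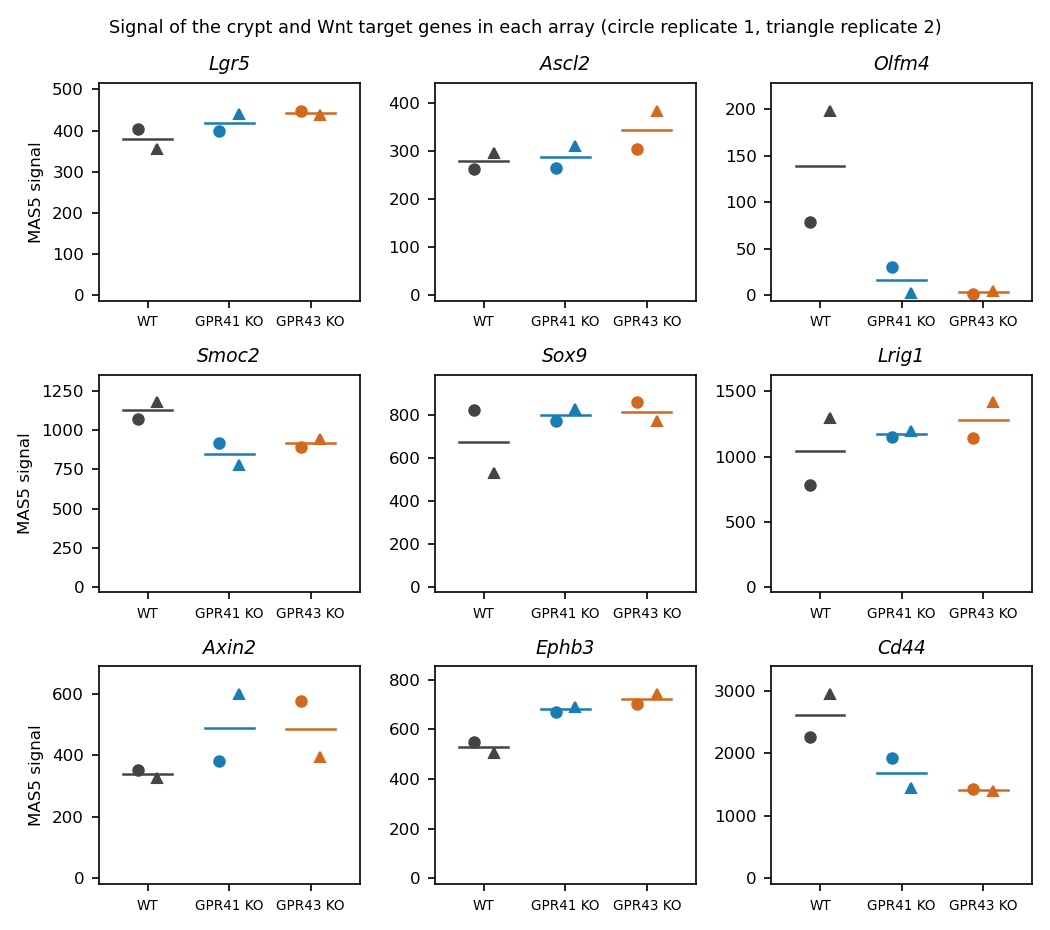
MAS5 signal (vertical axis, linear, in a panel per gene) of the strongest probe set of 9 crypt base and Wnt target genes in the 6 arrays. Circles are replicate 1, triangles are replicate 2 and lines are group means of 2 arrays. Cd44, Olfm4 and Smoc2 were lower in all 4 KO arrays than in both WT arrays, Ephb3 and Axin2 were higher, and the groups overlapped for Sox9 and Lrig1.

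Lgr5, the R-spondin receptor that marks crypt base stem cells, stayed within a narrow range. Its signal was 403.2 and 356.4 in WT, 397.9 and 440.2 in GPR41 KO, and 448.3 and 437.4 in GPR43 KO. GPR41 KO overlapped with WT, while both GPR43 KO arrays lay above both WT arrays by a small margin. The log2 fold change was 0.14 ± 0.18 (SE of the limma fit, n = 2 per group, adjusted p = 0.724) in GPR41 KO and 0.21 ± 0.18 (adjusted p = 0.551) in GPR43 KO. The 95% interval ran from -0.27 to 0.54 in GPR41 KO and from -0.19 to 0.62 in GPR43 KO, so a change beyond 1.53-fold lies outside both. A second Lgr5 probe set was too weak to be tested. It was at 40.4 and 23.7 in WT, at 29.0 and 42.1 in GPR41 KO, and at 59.1 and 50.7 in GPR43 KO. There both GPR43 KO arrays lay above all others.

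Ascl2, a basic helix-loop-helix transcription factor needed for crypt base stem cells, is read by 3 probe sets. The strongest was at 263.3 and 295.8 in WT, at 264.4 and 311.1 in GPR41 KO, and at 304.6 and 384.9 in GPR43 KO. Its log2 fold change was 0.04 ± 0.22 (adjusted p = 0.95) in GPR41 KO and 0.28 ± 0.22 (adjusted p = 0.522) in GPR43 KO. The next probe set was between 192.4 and 266.8 in all arrays, with GPR41 KO overlapping WT and both GPR43 KO arrays above both WT arrays. The probe sets did not give the same picture. The weakest was at 128.8 and 67.1 in WT against 166.0 and 216.1 in GPR41 KO and 99.2 and 89.7 in GPR43 KO, and there the GPR41 KO arrays lay above all others. The names of the stronger Ascl2 probe sets, and of the strongest Lrig1 probe set, carry the array maker's mark for probes that may also match other transcripts.

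Smoc2, a secreted calcium-binding matrix protein found in the Lgr5 stem cell signature, was lower in both KO groups without passing the test. The signal was 1073 and 1178 in WT, 918.0 and 775.9 in GPR41 KO, and 890.9 and 940.9 in GPR43 KO. All 4 KO arrays lay below both WT arrays. The log2 fold change was -0.41 ± 0.15 (adjusted p = 0.169) in GPR41 KO and -0.29 ± 0.15 (adjusted p = 0.312) in GPR43 KO. In the second Smoc2 probe set, at 502.1 and 345.6 in WT and between 215.0 and 375.3 in the KO arrays, the groups overlapped.

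Sox9, a transcription factor of crypt base progenitors, had WT arrays far apart from each other. In its strongest probe set WT was at 820.6 and 528.9, GPR41 KO at 769.9 and 827.2, and GPR43 KO at 859.0 and 770.0. WT replicate 2 was the low array there and again in the next probe set, at 217.9 beside 445.7 in WT replicate 1. The fold change on the log2 scale was 0.27 ± 0.21 (adjusted p = 0.536) in GPR41 KO and 0.30 ± 0.21 (adjusted p = 0.478) in GPR43 KO. It was -0.04 and -0.01 without WT replicate 2, so the sign rests on that array.

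Lrig1, a membrane protein that restrains ErbB receptors and marks slowly dividing crypt progenitors, showed the reverse spread in WT. In the strongest probe set WT was at 784.7 and 1295, GPR41 KO at 1148 and 1196, and GPR43 KO at 1140.0 and 1418. Here WT replicate 1 was the low array and the groups overlapped. A second probe set stayed between 873.5 and 1006 in all 6 arrays. The fold changes of the strongest set, 0.21 ± 0.22 (adjusted p = 0.658) and 0.33 ± 0.22 (adjusted p = 0.465) on the log2 scale, stand beside -0.07 and -0.01 for the second set. Their sign rests on WT replicate 1: they were -0.14 and -0.03 without it, and 0.57 and 0.68 without WT replicate 2.

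Axin2, a scaffold of the complex that breaks down beta-catenin and a feedback target of Wnt signals, was higher in every KO array than in WT. The signal was 352.7 and 324.8 in WT, 379.8 and 599.6 in GPR41 KO, and 575.9 and 395.7 in GPR43 KO. In each KO group 1 array lay close to WT and the other well above it, and the group SDs were 155.5 and 127.4 against 19.7 in WT. With this spread the log2 fold changes of 0.48 ± 0.26 did not pass (adjusted p = 0.366 in GPR41 KO and 0.351 in GPR43 KO). Their 95% intervals both ran from -0.11 to 1.06. A second Axin2 probe set was weak, between 48.5 and 93.5, and was not tested.

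Ephb3, a receptor tyrosine kinase that holds cells at their place along the crypt, was higher in all 4 KO arrays than in WT, with little spread within groups. It was at 549.8 and 503.6 in WT, at 670.5 and 689.7 in GPR41 KO, and at 699.6 and 742.9 in GPR43 KO. The groups did not overlap, and their SDs were small at 32.7, 13.6 and 30.6. The log2 fold change was 0.36 ± 0.15 in GPR41 KO (95% interval 0.02 to 0.70, adjusted p = 0.233) and 0.44 ± 0.15 in GPR43 KO (0.10 to 0.78, adjusted p = 0.152). Neither passed over all genes tested. General epithelial markers were also higher, with median log2 fold changes of 0.29 and 0.33, and the part of a larger epithelial share of the RNA in the Ephb3 values was not tested.

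The promoter of Ephb3 is shown because it was the one among the promoters of these genes in the RefSeq table (build GRCm38.p6) that held a motif searched for. It lies on the plus strand at chr16:21204545-21204844 and is written with the motif in capitals. The window runs from 250 bases before the start site used for it to 50 after that site. The first base of the gene, at 21204620, lies inside the window, so much of the window is within the gene.
Ephb3 promoter: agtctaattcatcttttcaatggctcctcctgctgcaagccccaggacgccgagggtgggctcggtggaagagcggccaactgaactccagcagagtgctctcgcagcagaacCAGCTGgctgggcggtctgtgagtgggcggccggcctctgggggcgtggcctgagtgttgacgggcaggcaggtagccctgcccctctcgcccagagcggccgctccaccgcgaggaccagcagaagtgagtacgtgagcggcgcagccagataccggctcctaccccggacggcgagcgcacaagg
The capitals mark CAGCTG, an E-box of the kind that basic helix-loop-helix factors such as Ascl2 can bind. It starts 137 bases before the start site used for the window, and lies after the first base of the gene. Of 7 promoters of the listed genes (Ascl2, Olfm4, Axin2, Ephb2, Ephb3, Cd44 and Lrig1), 1 held this motif, which reads the same on both strands, beside 16.3% of all 32851 promoters of 300 bases. The TCF and LEF motif, searched on both strands as CTTTGAA or its variants CTTTGAT, then CTTTGTA, and also CTTTGTT, was in 0 of the 7 and in 16.9% of all. The letters searched are thus absent from these windows, which says nothing about binding elsewhere.

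Cd44, a receptor for hyaluronan that Wnt signals switch on in crypts and that leukocytes also carry, was lower in both KO groups. WT was at 2264 and 2953 in its strongest probe set, GPR41 KO at 1932 and 1444, and GPR43 KO at 1427 and 1390.0. All KO arrays lay below both WT arrays, and WT replicate 2 was the highest. The log2 fold change was -0.87 ± 0.18 in GPR43 KO (95% interval -1.27 to -0.46, adjusted p = 0.0329), a signal 0.548 times that of WT. In GPR41 KO it was -0.62 ± 0.18 (-1.03 to -0.22, adjusted p = 0.0907) and did not pass. The difference between the KO groups was -0.24 ± 0.18 (adjusted p = 0.895).

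The other strong probe sets of Cd44 gave the same order of groups. One was at 2068 and 2341 in WT, at 1406 and 1505 in GPR41 KO, and at 1293 and 1203 in GPR43 KO. The other was at 1163 and 1816 in WT, at 783.3 and 779.1 in GPR41 KO, and at 623.5 and 602.6 in GPR43 KO. With every probe set tested on its own, these 3 of the 15 tested probe sets of the listed genes fell in GPR43 KO (adjusted p = 0.0458, 0.0195 and 0.0195), where 1.56% of all probe sets fell. When the library labelled GPR43 KO replicate 1 was left out, 0 probe sets of the listed genes passed, and those of Cd44 were at -0.89, -0.86 and -1.24 (adjusted p = 0.167, 0.0839 and 0.0929). In GPR41 KO their adjusted p was 0.124, 0.0578 and 0.0616, and 0 of the 15 fell, where 2% of all did. The remaining Cd44 probe set, between 2.68 and 7.77 in all arrays, carried no usable signal.

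The Cd44 call in GPR43 KO rested on few arrays. When the library labelled GPR43 KO replicate 1 was left out, the log2 fold change was -0.89 (adjusted p = 0.115), and it was -0.85 (adjusted p = 0.165) without GPR43 KO replicate 2 and -0.68 (adjusted p = 0.125) without WT replicate 2. The mean over its probe sets also did not pass (-0.72, adjusted p = 0.08), nor did the fit without an intensity trend (adjusted p = 0.0924). For GPR41 KO the call was gained without WT replicate 1 (-0.81, adjusted p = 0.0304). The direction was the same whichever array was left out.

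The promoter of Cd44 is shown as that of the gene that passed the test. It lies on the minus strand at chr2:102901616-102901915 and held neither motif, so it has no capitals.
Cd44 promoter: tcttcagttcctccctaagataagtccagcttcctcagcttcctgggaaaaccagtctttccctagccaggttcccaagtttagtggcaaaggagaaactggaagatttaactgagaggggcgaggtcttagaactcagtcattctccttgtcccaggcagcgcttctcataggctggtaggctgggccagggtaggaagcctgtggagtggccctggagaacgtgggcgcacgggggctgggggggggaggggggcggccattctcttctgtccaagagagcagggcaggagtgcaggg

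Olfm4, a secreted glycoprotein of small intestinal crypt base cells that neutrophils also store, had a weak signal that was lower in both KO groups. It was at 79.1 and 198.5 in WT, at 30.1 and 2.26 in GPR41 KO, and at 1.45 and 4.82 in GPR43 KO. All 4 KO arrays lay below both WT arrays. Only WT replicate 2 exceeded 125.9, the signal that corresponds to the filter level, and the gene was not tested with the others. Olfm4 was then read from a fit without that filter, over 18194 genes, a reading added after the data were seen. There its log2 fold change was -2.20 ± 0.55 (adjusted p = 0.0919) in GPR41 KO and -2.76 ± 0.55 (adjusted p = 0.0462) in GPR43 KO. These sizes depend on the pseudocount, since the KO signals are near background, and they are no bound on the fold. The GPR43 KO value was -5.07 (adjusted p = 0.0737) with a pseudocount of 1 and -1.41 (adjusted p = 0.0577) with 4 times the pseudocount. It was -2.65 (adjusted p = 0.216) when the library labelled GPR43 KO replicate 1 was left out, and over all arrays left out in turn the adjusted p ranged from 0.0307 to 0.231.

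Markers of leukocytes, like Cd44 and Olfm4, were lower in both KO groups than in WT. The summed signal of 18 neutrophil markers was 96366 and 180520 in WT, 4633 and 3858 in GPR41 KO, and 6196 and 4223 in GPR43 KO. WT replicate 2 was the highest of the 6 arrays in this sum, in Cd44 and in Olfm4. Between the KO groups no order was resolved. Their arrays overlapped in the neutrophil sum and in Olfm4, and the Cd44 difference did not pass (limma, adjusted p = 0.895). The neutrophil sum was at 3.07% of the WT mean in GPR41 KO and at 3.76% in GPR43 KO. Mean Cd44 was at 1688 in GPR41 KO and 1408 in GPR43 KO, and mean Olfm4 at 16.2 and 3.13. Of 12 tested neutrophil markers 11 fell in each KO group, with medians of -5.25 and -5.02, including Lcn2 (-7.05 and -6.39), S100a8 (-7.07 and -5.89) and S100a9 (-7.35 and -6.38). Of 17 tested macrophage and general leukocyte markers 11 fell in GPR41 KO and 10 in GPR43 KO, among them Cd14 (-2.29 and -2.03), Tyrobp (-2.26 and -1.86) and Fcer1g (-2.81 and -2.34), a signalling chain of Fc receptors. Without the doubted GPR43 KO library these counts were 11 of 12 and 7 of 17. The summed leukocyte list was at 53554 and 78192 in WT and between 21324 and 30806 in the KO arrays. The part of fewer leukocytes in the lower Cd44 and Olfm4 signals was not tested. In whole tissue, fewer cells of a type and less RNA per cell cannot be told apart. Of the neutrophil list only Mpo stayed below the filter level in every array. The filter uses the mean over all 6 arrays, so a marker high only in WT can pass it through WT. How many of the 12 did so was not counted. Where KO signals are near background, the size of a fall depends on the pseudocount.

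**Figure D2:**
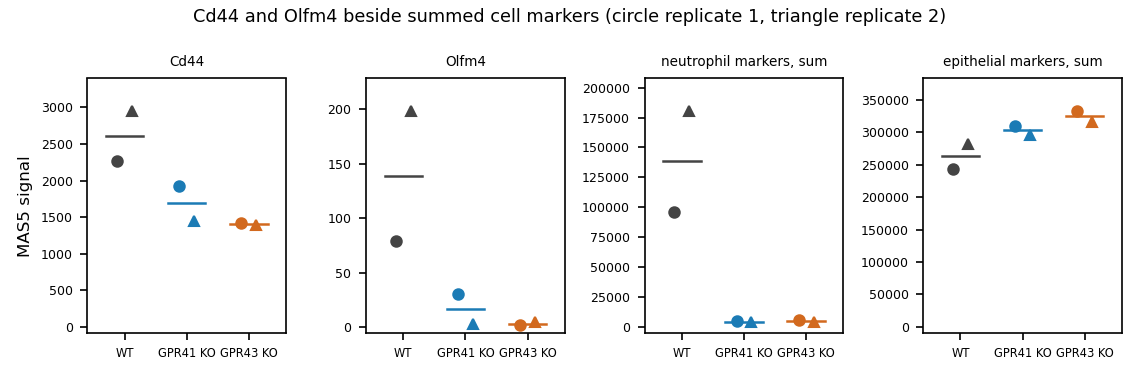
MAS5 signal (vertical axes, linear) of Cd44 and Olfm4 and the summed signal of 18 neutrophil and 15 general epithelial markers in the 6 arrays, with circles for replicate 1, triangles for replicate 2 and lines for group means. Cd44, Olfm4 and the neutrophil sum were highest in WT replicate 2, and the KO arrays were the lowest in all of these, while the epithelial sum was lowest in WT.

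Across the 8 tested genes, groups did not overlap in 4 genes in GPR41 KO against WT and in 6 in GPR43 KO against WT. Over all genes tested this held for 49.9% and 50.6%. Groups of 2 arrays thus often lie apart, and these counts were not tested.

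**Figure D3:**
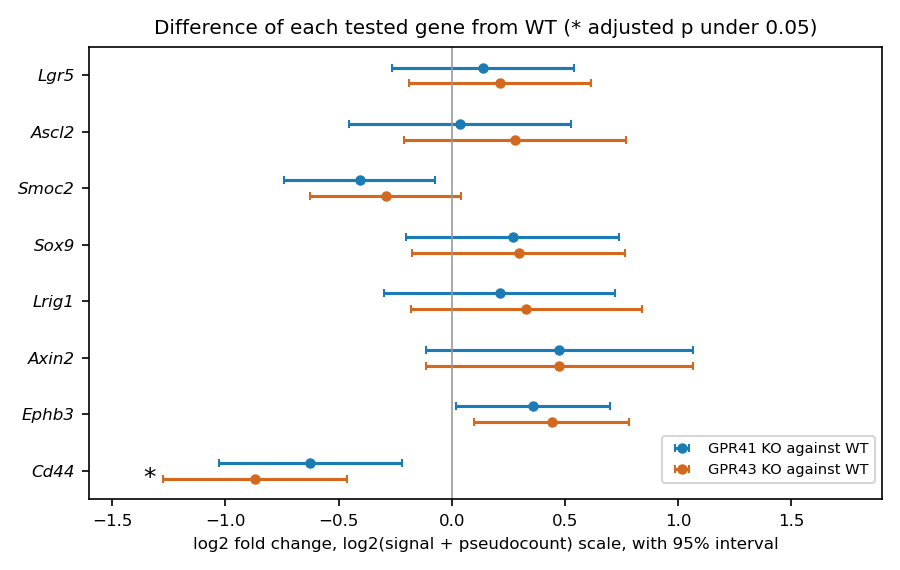
Log2 fold change (horizontal axis, on the log2(signal + pseudocount) scale) of the 8 tested genes in GPR41 KO and GPR43 KO against WT, with 95% intervals from the limma fit (n = 2 per group). The star marks Cd44 in GPR43 KO, at -0.87, which passed over all genes, and the other values lie between -0.62 and 0.48.

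GPR43 KO was then set against GPR41 KO. None of the 8 genes passed, and 0 of the 10916 genes tested did (0%) in limma, with 596 at an unadjusted p under 0.05. Over all genes 2 passed without the library labelled GPR43 KO replicate 1. The log2 differences ranged from -0.24 for Cd44 to 0.24 for Ascl2. That of Lgr5 was 0.08 with a 95% interval from -0.32 to 0.48, and that of Axin2 was 0.00 with an interval from -0.59 to 0.59. The intervals of all 8 genes lay between -0.65 and 0.73, so differences of up to 1.66-fold (Ascl2) remain possible.

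The other genes of the Wnt pathway changed in few cases, where 4.97% of all genes tested were called in GPR41 KO and 3.96% in GPR43 KO. Of 25 ligands, R-spondins and secretion factors only 6 were tested, since most were weak, and 0 passed in either KO group. Wls, which carries Wnt proteins to the cell surface, was at 0.29 and 0.31 on the log2 scale in GPR41 KO and GPR43 KO, Wnt4 at -0.39 and 0.07, and Porcn, which adds the lipid that Wnt proteins need, at -0.47 and -0.19. Rspo3, an R-spondin singled out after its values were seen, was at 234.5 and 292.7 in WT, at 101.7 and 125.2 in GPR41 KO, and at 119.6 and 118.1 in GPR43 KO. All KO arrays lay below WT and below the filter level, so Rspo3 was tested only because its WT signals were high. Its log2 fold changes of -1.09 (adjusted p = 0.0577) and -1.03 (adjusted p = 0.0751) did not pass. Of 16 tested receptors and receptor ligases 1 rose in GPR41 KO and 0 changed in GPR43 KO. It was Fzd9, a Frizzled receptor, at 90.9 and 86.1 in WT and at 190.3 and 254.8 in GPR41 KO (log2 1.16 ± 0.27, adjusted p = 0.0491). Fzd9 in GPR43 KO was at 160.9 and 164.8 (0.76, adjusted p = 0.17). Both WT values lay below the filter level of 125.9, so Fzd9 was tested only because its KO signals were high.

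Lgr4, the R-spondin receptor related to Lgr5, did not pass. It was at 2874 and 2009 in WT, at 3723 and 3575 in GPR41 KO, and at 3530.0 and 4473 in GPR43 KO, and all KO arrays lay above WT. Its log2 fold changes were 0.60 ± 0.18 (adjusted p = 0.114) and 0.72 ± 0.18 (adjusted p = 0.0684). Fzd5, the Frizzled receptor of intestinal epithelium, was at 0.25 and 0.46 and the Wnt co-receptor Ryk at -0.08 and 0.10, without passing. Of 6 tested secreted inhibitors 0 passed, with Sfrp1 at -0.64 (adjusted p = 0.0731) and -0.26 (adjusted p = 0.441), Dkk3 at -0.15 and 0.11, and Sfrp4 at -0.37 and 0.06. Of 19 tested genes of the signal path within the cell 0 passed, with medians of 0.05 and 0.04, and Ctnnb1, which encodes beta-catenin, was at 0.12 ± 0.13 and 0.15 ± 0.13. The casein kinase Csnk1a1, which primes beta-catenin for breakdown, was at 0.05 and -0.0021, and the tankyrase Tnks2, which acts on axin, at 0.08 and 0.0045.

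The 19 other Wnt targets tested had medians of 0.00019 in GPR41 KO and 0.09 in GPR43 KO. Where 3.11% and 2.41% of all genes tested fell, 2 of the 19 fell in each KO group and 0 rose. They were Plaur, the urokinase receptor, at 1828 and 4047 in WT and between 333.5 and 583.7 in the KO arrays (log2 -2.59 and -2.51), and the matrix protease Mmp7 (-1.84 and -1.81). Plaur is also carried by neutrophils and macrophages. Without the doubted GPR43 KO library neither passed in GPR43 KO, at -2.19 (adjusted p = 0.0542) for Plaur and -1.98 (adjusted p = 0.0582) for Mmp7. The caudal homeobox genes Cdx2 and Cdx1, which set intestinal identity, were at 0.54 and 0.29 in GPR41 KO and at 0.33 and 0.30 in GPR43 KO, and the cell cycle gene Ccnd1 at -0.12 and 0.01, without passing.

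Of 22 tested other crypt base and progenitor genes, 1 rose and 1 fell in GPR41 KO, and 1 rose in GPR43 KO, with medians of 0.11 and 0.14. The share called over all genes tested was 4.97% in GPR41 KO and 3.96% in GPR43 KO. Clca4a, a member of the calcium-activated chloride channel regulator family, rose from 6019 and 4865 in WT to 22301 and 12315 in GPR41 KO (log2 1.61 ± 0.24, adjusted p = 0.00709) and to 13627 and 14272 in GPR43 KO (1.36, adjusted p = 0.0194). Without the doubted library the GPR43 KO value was about as large but did not pass (adjusted p = 0.0757). Whether crypt base cells or differentiated epithelium carried the Clca4a signal cannot be told from whole colon, and its place in this list was not tested. Fstl1, a secreted glycoprotein that stromal cells also make, fell by 0.80 in GPR41 KO (adjusted p = 0.0391). The strongest genes of the list did not pass. Cd24a was at 0.53 (adjusted p = 0.0745) and 0.42 (adjusted p = 0.145) and Tspan8 at 0.13 and 0.20, both with every KO array above WT, and Prom1 was at 0.01 and -0.04.

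Of 26 tested proliferation genes 0 changed in GPR41 KO and 2 fell in GPR43 KO, with medians of 0.17 and 0.18. Among all genes tested 4.97% were called in GPR41 KO, and 2.41% fell in GPR43 KO. Rrm2, a subunit of the enzyme that makes deoxynucleotides, was at 1785 and 2050 in WT, at 1425 and 1398 in GPR41 KO, and at 1037 and 1014 in GPR43 KO. Its log2 fold change was -0.89 ± 0.13 in GPR43 KO (adjusted p = 0.00814) and -0.43 ± 0.13 in GPR41 KO (adjusted p = 0.106). The replication helicase subunit Mcm3 fell by 0.71 in GPR43 KO (adjusted p = 0.0294). Without the doubted library Rrm2 still fell (-0.90, adjusted p = 0.0447), while Mcm3 did not pass (-0.74, adjusted p = 0.109).

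Genes of differentiated epithelium had higher medians than the crypt base set. Of all 10916 genes tested, 203 rose in GPR41 KO and 169 in GPR43 KO. Of 24 absorptive colonocyte markers 6 rose in GPR41 KO and 4 in GPR43 KO, with medians of 0.46 and 0.44, among them the water channel Aqp8 (2.03 and 1.83) and the carbonic anhydrase Car2 (0.62 and 0.64). Of 20 goblet and secretory cell markers 2 rose in GPR41 KO and 3 in GPR43 KO, with medians of 0.48 and 0.54, among them Reg4 (2.23 and 1.96), a lectin of deep crypt secretory cells, and Agr2 (0.65 and 0.75). Of 15 general epithelial markers 1 rose in GPR41 KO and 0 in GPR43 KO. Without the doubted library 0 colonocyte and 0 goblet markers passed in GPR43 KO, with medians of 0.33 and 0.55. The medians are set beside those of the crypt base genes as a description, and the difference between the lists was not tested.

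Of 13 tested epithelial genes linked to injury or regeneration, 6 fell in GPR41 KO and 5 in GPR43 KO, with medians of -1.49 and -1.39. The share that fell over all genes tested was 3.11% in GPR41 KO and 2.41% in GPR43 KO. Plaur is also in this list, so its fall is counted here and among the other Wnt targets. Ereg, a ligand of the EGF receptor, was at 918.9 and 1166 in WT, at 428.6 and 297.8 in GPR41 KO, and at 173.8 and 154.5 in GPR43 KO (log2 -1.49 and -2.53). Il33 (-2.52 and -2.30), Il1rn (-1.71 and -1.43) and Ccn2 (-1.38 and -1.50) fell in both groups. Without the doubted library 3 of the 13 fell in GPR43 KO, namely Ereg, Il33 and Ccn2. Several of these genes are also made by stromal cells and leukocytes.

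**Figure D4:**
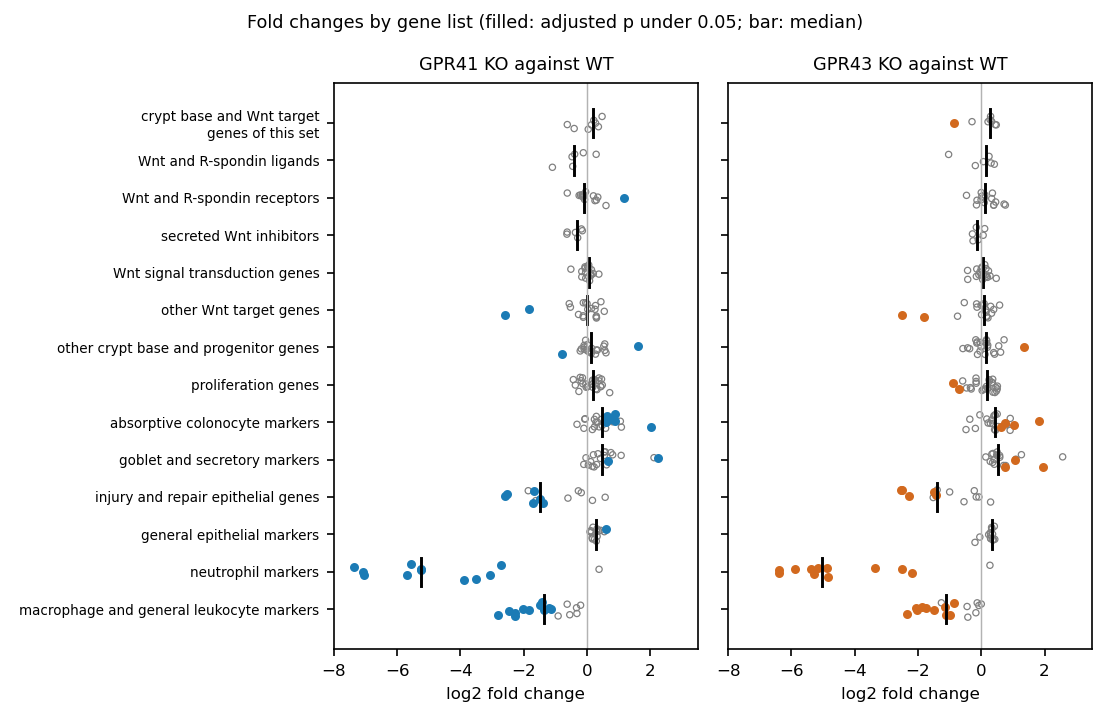
Log2 fold change (horizontal axis) of each tested gene by list, in GPR41 KO and GPR43 KO against WT, with filled points for adjusted p under 0.05, open points for other genes and black bars for list medians. The set of 8 genes has medians of 0.17 and 0.29 with 1 filled point (Cd44 in GPR43 KO), the Wnt ligands and inhibitors have medians of -0.42 and -0.33 in GPR41 KO with no filled point, and the neutrophil markers have medians of -5.25 and -5.02.

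Markers of other cell types of the colon wall passed in some cases. Over all genes tested, 4.97% were called in GPR41 KO against WT and 3.96% in GPR43 KO against WT. Of 19 tested fibroblast and stromal markers 2 fell in GPR41 KO, Fn1 (-0.72) and Fbln2 (-0.89), and 0 changed in GPR43 KO. Of 15 smooth muscle markers 2 rose in GPR41 KO and 3 in GPR43 KO, including Synm (0.77 and 0.80) and Actg2. Of 14 endothelial markers 1 fell in GPR41 KO, Pecam1 (-0.87), and of 11 neuron and glia markers 1 fell, Vip (-1.17), with 0 changed in GPR43 KO for both lists. The muscle count was 0 in GPR43 KO without the doubted library.

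The pattern of Lgr5 over the 6 arrays was most closely followed by genes of other kinds. After centring each gene on its mean, the root mean square difference of log2 signals from Lgr5 was 0.02 for C330007P06Rik, 0.02 for Ndufa7, 0.02 for Prpf8, 0.04 for Dym and 0.04 for Eefsec. It was 0.21 for the median gene tested. Ndufa7 encodes a subunit of respiratory complex I and Prpf8 a core protein of the spliceosome. Lgr5 itself spanned only 0.32 on the log2 scale between its lowest and highest array, so this is likeness to a nearly flat profile. No member of the crypt base set was among these 5 genes.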

How the data were processed

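Total RNA of 6 colon samples was hybridised to Affymetrix arrays, per the labels. Each deposited intensity is the signal of a probe set, computed by the authors with MAS5 per the submitters' processing notes, and scaled so that the mean without the lowest and highest 2% of probe sets is 500.0 in every array. Of 45101 probe sets, 34958 carried 1 gene symbol, 932 several and 9211 none.

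Each gene was read from its probe set with the highest mean log2 signal, and the 10916 genes above the 40th percentile were tested. To each signal 18.4 was added before log2 (the 20th percentile of all values), which draws weak signals together. In R 4.3.3, limma 3.58.1 (lmFit, eBayes with trend) fitted all 6 arrays with a mean for each group, with two-sided tests and Benjamini-Hochberg adjustment at 0.05. Errors after ± are standard errors of this fit, and few arrays limit the precision. Alternatives covered the pseudocount, normalization, filter, probe set handling, trend, samples, arrays left out and a replicate block.

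The genes and all lists were chosen with earlier results of these data known. Named are all genes of the set, up to 4 called genes per list and comparison, the 3 strongest tested genes of each Wnt and crypt list, the 5 closest to Lgr5, and the targeted genes.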

Additional observations from a re-analysis of the deposited data

How the results depend on the processing

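Over the alternatives, 410 values of single genes kept their direction and their side of the threshold, 1 was gained, 13 were lost and 23 changed sign without passing in either fit; no called value changed sign. The 410 are mostly values that were not called in either fit. Only Cd44, and Olfm4 without the filter, were called before the settings were changed, both in GPR43 KO. All 13 lost values were theirs, over 18 alternatives for Cd44 and 8 for Olfm4. In GPR43 KO against WT 1 tested crypt base or Wnt target gene was called. The count was 2 with no filter (Cd44 and Olfm4) and 0 with the mean over probe sets, with no intensity trend or with the replicate block (Cd44 adjusted p = 0.0693). It was 0 to 1 with each array left out, as it was in GPR41 KO, where it was 0 with all arrays. Deviations of same-numbered arrays correlated at 0.11 (WT and GPR41 KO), -0.27 (WT and GPR43 KO) and -0.05, so the replicate numbers were not taken to pair arrays. With them as a block 401, 295 and 0 of all genes were called in GPR41 KO, in GPR43 KO and between the KO groups, beside 543, 432 and 0. With the filter at the 60th percentile, which tests 7278 genes, 335 were called in GPR41 KO and 280 in GPR43 KO. With no intensity trend 217 were called in GPR43 KO. With an array left out 209 to 880 were called in GPR41 KO and 139 to 751 in GPR43 KO. Between the KO groups 1 was called with every probe set tested, 1 with only the 2 groups compared, and 0 to 3 with an array left out. Apart from the filter and the arrays left out, the cause was not tested. Signals near background limit Olfm4 and the weaker probe sets.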
